A study of Mus musculus with 22 samples.

Results

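Active distal enhancers of mouse liver were defined here as regions acetylated at histone H3 lysine 27 (H3K27ac) that also carried monomethylated lysine 4 (H3K4me1) and lay outside trimethylated lysine 4 (H3K4me3). They were the rows of the authors' union table of H3K27ac peaks that were shorter than 10000 bp, did not overlap an H3K4me3 peak of chow liver, and overlapped a row of the union table of H3K4me1 peaks by at least 1 base. This gave 3427 of 11235 H3K27ac regions (30.5%), which together spanned 15.9 Mb. The other regions comprised 6129 at a chow H3K4me3 peak (promoter regions below), 935 with neither H3K4 mark and 744 of 10000 bp or more. All livers came from wild-type C57BL/6J mice killed at 24 weeks of age after an overnight fast. Controls ate standard chow throughout, and the other mice ate a high-fat diet for 16 weeks from week 8. Each mark was measured by chromatin immunoprecipitation sequencing (ChIP-seq) in 3 chow and 3 high-fat-diet libraries, and H3K4me3 in 2 chow libraries. The labels name no animal for any library, so p-values measure the spread between these libraries.

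H3K27ac is deposited by the acetyltransferases CBP and p300 at active enhancers and promoters, and is removed by histone deacetylases. H3K4me1 is written mainly by MLL3 and MLL4, marks enhancers whether active or only primed, and gives way to H3K4me3 at active gene starts. In liver, distal enhancers bind hepatocyte factors such as HNF4A, FOXA and C/EBP proteins and nuclear receptors that respond to feeding and lipids.

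Coordinates below are those of the deposited tables, on mouse build mm9. No mm9 genome or gene annotation was used here, so no gene is attached to any region and no sequence is shown. Because distance was judged from chow H3K4me3 peaks alone, gene starts without such a peak may be among the distal enhancers. Counts inside regions totalled 2037101 to 5772962 per H3K27ac library and 5487592 to 7380206 per H3K4me1 library. The shallowest H3K27ac library was high-fat-diet replicate 1. Levels are given as counts per 1000000 of these in-region counts (CPM), after TMM scaling, and as CPM per kb where regions of different length are compared. In liver mRNA of the same study, a list of 8 hepatocyte markers summed to 102445 to 110096 CPM on chow and 104990 to 129767 on the high-fat diet. A list of 12 pancreatic acinar markers summed to 320 to 1953 CPM on chow and 10.1 to 186 on the high-fat diet, and a list of 5 adipocyte markers to 6.18 to 9.26 and 16.6 to 27.4. On chow and the high-fat diet, 9 measured macrophage markers summed to 233 to 433 and 277 to 512 CPM, and 7 stellate cell markers to 102 to 125 and 99.8 to 269.7 CPM. Lists of 6 endothelial and 5 cholangiocyte markers summed to 164 to 258 and 177 to 306 CPM, and to 34.8 to 45.6 and 37.6 to 60.4 CPM. No listed gene was at 0 in every library, the labels do not match mRNA to ChIP animals, and the part of other cell types in the results below was not tested. In whole liver, fewer cells of a type and less signal per cell cannot be told apart. Per the file headers, peaks of each diet were called from a directory with its own code, and a batch tied to diet cannot be told apart from the diet itself.

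A typical distal enhancer was longer than a promoter region and had fewer H3K27ac CPM per kb. Its median length was 4319 bp (range 764 to 9996), against 3069 bp at promoter regions. Its median chow H3K27ac level was 15.4 CPM per kb, against 21.8 at promoter regions and 13.5 at regions with neither H3K4 mark. Within the enhancers the level spanned a narrow range, from 7.89 to 32.8 CPM per kb, and the 90th percentile was 1.71 times the 10th. H3K4me1 covered a median 91.8% of an enhancer's length. It covered 475 enhancers whole and 348 by less than 50%, and the smallest overlap was 5 bp. The H3K4me1 row with the largest overlap (the paired row below) lay inside the enhancer in 1744 cases, ran past both ends in 467 and past 1 end in 1216. These 3427 enhancers had 3397 distinct paired rows, because 30 rows were shared by 60 neighbouring enhancers. Chow H3K4me1 in the paired rows had a median of 13.0 CPM per kb. Across the enhancers the chow levels per kb of both marks correlated with r = 0.53 (Spearman's rho = 0.52, n = 3427), a description only, since the points share overlapping DNA and the same livers may have served for both marks. The nearest chow H3K4me3 peak lay at a median distance of 20676 bp, with the middle 50% between 7357 and 50995 bp. The smallest distance was 3 bp, and 282 enhancers lay within 2000 bp of such a peak, so the class includes regions beside promoters.

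The length limit cut through a continuous distribution. The longest enhancers inside it measured 9996, 9980 and 9973 bp, and had mean chow H3K27ac levels of 282, 163 and 205 CPM. The shortest regions outside it that met the rest of the definition measured 10003, 10012 and 10012 bp, with 178, 200.1 and 155 CPM. In all, 307 regions met the definition except for their length.

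The 5 most strongly acetylated enhancers per kb on chow carried H3K4me1 over 94.5% to 100% of their length, and none passed the test between diets in either mark. The highest was chr5:122972436-122981195, with 31.6, 32.3 and 34.6 CPM per kb in the chow libraries and 23.4, 32.2 and 28.7 on the high-fat diet. Its diet groups overlapped, because high-fat-diet replicate 2 reached the chow range. It was followed by chr6:90267706-90272944 at 32.8 CPM per kb, which lay only 356 bp from an H3K4me3 peak, and by chr14:66507986-66510452 at 31.8. The enhancers chr3:69359114-69360468 and chr10:53154190-53156762 came next, at 31.6 and 31.0 CPM per kb.

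**Figure D1:**
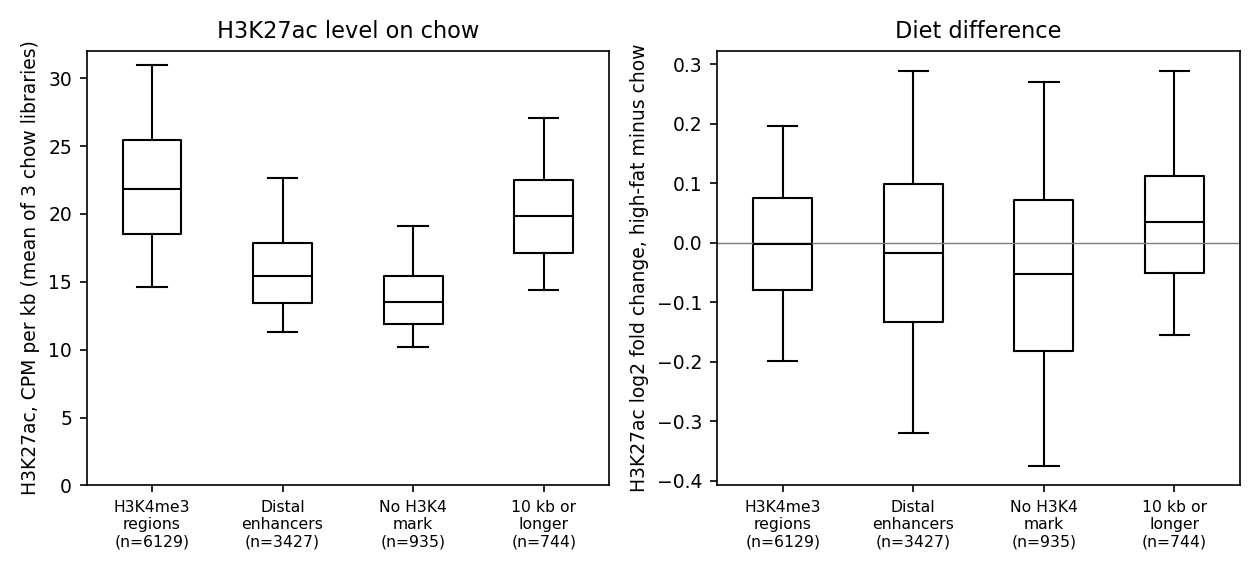
Chow H3K27ac level in CPM per kb (left) and log2 fold change between diets (right) in each class of H3K27ac region. Boxes give the median and middle 50% over regions, whiskers the 5th and 95th percentiles. Distal enhancers had a median of 15.4 CPM per kb against 21.8 at H3K4me3 regions, and their fold changes spread more widely (SD 0.188 against 0.126). The SD was 0.199 at regions with neither H3K4 mark and 0.139 at regions of 10000 bp or more.

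As a whole, the share of acetylation in distal enhancers did not differ between diets beyond the spread of the libraries. Their share of in-region H3K27ac counts was 25.8%, 25.2% and 25.6% in the chow libraries and 24.7%, 25.7% and 25.3% in the high-fat-diet libraries. The lowest value belonged to the shallowest library, high-fat-diet replicate 1, and the groups overlapped. The means were 25.5% ± 0.289 (SD, n = 3) and 25.2% ± 0.534 (SD, n = 3), with p = 0.5 in a two-sided exact permutation test, whose smallest possible p with 3 against 3 is 0.1. Relative to promoter regions, the log2 ratio of summed counts was -0.92 ± 0.020 on chow and -0.94 ± 0.057 on the high-fat diet (SD, n = 3, exact permutation p = 0.7). Relative to regions with neither H3K4 mark it was 2.47 ± 0.032 and 2.49 ± 0.017 (SD, n = 3, exact permutation p = 0.5). The difference to promoter regions turned from -0.020 to 0.011 without high-fat-diet replicate 1.

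At single enhancers, acetylation rose at 68 and fell at 54 on the high-fat diet (edgeR's quasi-likelihood test, Benjamini-Hochberg adjusted p under 0.05 over all 11235 regions). These 122 calls were 3.56% of the enhancers. The background over all H3K27ac regions was 1.91%, with 1.20% higher and 0.712% lower, against 1.98% and 1.58% of the enhancers. Promoter regions had 38 calls (0.620%), regions with neither H3K4 mark 21 (2.25%), and regions of 10000 bp or more 34 (4.57%). Shares of called regions were not tested against each other, since regions are not replicates. Median H3K27ac was 64.4 CPM per region at enhancers, 68.5 at promoter regions, 41.5 at regions with neither H3K4 mark and 249.7 at the longest class. Their median lengths were 4319, 3069, 3270 and 12418 bp, in the same order, and the part of depth and length in these shares was not tested. Chow and high-fat-diet libraries did not overlap at 374 enhancers that were higher and 466 that were lower on the high-fat diet, together 24.5%. Over all regions 19.3% did not overlap, 9.50% higher and 9.82% lower. The median log2 fold change of the enhancers was -0.018, against -0.0068 over all regions. On the log2 scale, 59 enhancers (1.72%) lay more than 0.5 from 0, against 98 of all regions (0.872%). Among regions with neither H3K4 mark, 20 did (2.14%).

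The called differences were modest in size. The 68 enhancers that rose had a median log2 fold change of 0.45 (0.30 to 0.70), and chow and high-fat-diet libraries were separate at 65 of them. The 54 that fell had a median of -0.50 (-0.92 to -0.36), and they were separate at all 54. Of the 68 rises, 42 overlapped only high-fat-diet peaks, 8 only chow peaks and 18 both. Of the 54 falls, 46 overlapped only chow peaks, 1 only high-fat-diet peaks and 7 both. Over all enhancers, 1625 overlapped only chow peaks, 483 only high-fat-diet peaks and 1319 both. The union takes in peaks of either diet, so many called enhancers were in it only through the diet where they were higher. Enhancers that rose were longer (median 5615 bp) and had lower chow levels (12.8 CPM per kb) than those that fell (4649 bp and 17.9 CPM per kb), and that level also enters the fold change. Calls were more frequent among long enhancers, with 1.08% of those up to 2500 bp and 6.02% of those longer than 7500 bp, and longer regions also hold more counts. By distance, 2.13% of enhancers within 2000 bp of H3K4me3 and 5.02% of those beyond 50000 bp were called. Length and distance were not fitted together. The rises lay on 19 chromosomes and the falls on 18. The chromosomes picked here are those with the most rises. Chromosome 17 held 7 rises and 5 falls among 155 enhancers, chromosome 2 held 10 and 1 among 223, and chromosome 7 held 7 and 2 among 181. Counts by chromosome were not set against those of all H3K27ac regions. The number of calls depended on single libraries. Dropping chow replicate 1, 2 or 3 left 27, 67 or 29 calls. Dropping high-fat-diet replicate 1, 2 or 3 left 147, 221 or 45. All 122 kept their direction in each of these fits, and 7 rises and 8 falls passed in every one.

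Among the largest rises, chr17:84477503-84486536 came first. Its H3K27ac was 112, 107 and 95.4 CPM in the chow libraries and 234, 129.6 and 162 CPM on the high-fat diet. High-fat-diet replicate 1 stood highest, and the groups did not overlap. The fold change was 1.63 (log2 0.70 ± 0.13 SE, edgeR adjusted p = 0.00734). Without chow replicate 3 the edgeR adjusted p was 0.0731, and DESeq2's test did not call it (adjusted p = 0.165).

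The second, chr15:78755237-78759624, had the lowest adjusted p of the 10 largest rises. Its H3K27ac was 71.9, 62.0 and 67.7 CPM on chow and 117, 99.8 and 116 CPM on the high-fat diet, so that all 3 high-fat-diet libraries stood well above the chow range. The fold change was 1.63 (log2 0.70 ± 0.09 SE, edgeR adjusted p = 0.000371), and it passed without any single library. H3K4me1 covered 98.7% of it and did not pass the test. That mark stood at 119.9, 119.6 and 111 CPM on chow and 119.6, 111 and 118 CPM on the high-fat diet, with a log2 fold change of -0.0080 ± 0.084 (SE).

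Also passing without any single library were chr17:43273660-43277644, chr19:44488548-44498309 and chr6:125289935-125297677. At chr17:43273660-43277644, which lay 118436 bp from the nearest H3K4me3 peak, H3K27ac was 34.6, 35.9 and 34.8 CPM on chow and 64.9, 51.2 and 56.0 CPM on the high-fat diet. Its chow libraries were almost equal and its log2 fold change was 0.69 ± 0.11 (SE, edgeR adjusted p = 0.00263). At chr19:44488548-44498309 H3K27ac was 108, 87.3 and 91.4 CPM against 178, 148 and 138 CPM, with no overlap (log2 0.67 ± 0.10 SE, edgeR adjusted p = 0.000868). At chr6:125289935-125297677, only 1042 bp from an H3K4me3 peak, it was 99.6, 122 and 102 CPM against 197, 151 and 156 CPM (log2 0.64 ± 0.10 SE, edgeR adjusted p = 0.00143). The other 5 of the 10 largest rises had log2 fold changes of 0.59 to 0.66. They were chr6:90719783-90722977, chr17:13855894-13861547, chr2:173040488-173045840, chr17:31169981-31178679 and chr15:59556977-59561112. Leaving out chow replicate 3 ended the call at each of these 5, and chow replicate 1 at chr17:13855894-13861547, chr2:173040488-173045840 and chr15:59556977-59561112. At chr6:90719783-90722977 the call also ended without chow replicate 2, high-fat-diet replicate 2 or replicate 3 (highest edgeR adjusted p = 0.266). High-fat-diet replicate 1 was the highest library of its diet at 8 of the 10 rises.

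The largest fall was chr4:144674917-144677609, 105772 bp from the nearest H3K4me3 peak. Its H3K27ac was 34.6, 52.4 and 36.5 CPM on chow and 26.6, 22.7 and 16.1 CPM on the high-fat diet. Chow replicate 2 stood highest and high-fat-diet replicate 3 lowest, and the groups did not overlap. The log2 fold change was -0.92 ± 0.17 (SE, edgeR adjusted p = 0.0069). It rose to 0.0819, and the call was lost, when high-fat-diet replicate 3 was dropped from the edgeR fit.

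The falls chr17:14305459-14314744, chr19:47374654-47382234 and chr12:21149031-21156344 passed without any single library. At chr17:14305459-14314744 H3K27ac was 92.6, 107 and 115 CPM on chow and 75.3, 51.6 and 60.9 CPM on the high-fat diet, and every chow library exceeded every high-fat-diet library (log2 -0.78 ± 0.11 SE, edgeR adjusted p = 0.000654). At chr19:47374654-47382234 it was 153, 132 and 145 CPM against 71.8, 88.8 and 105 CPM, again without overlap (log2 -0.68 ± 0.10 SE, edgeR adjusted p = 0.00109). At chr12:21149031-21156344 it was 123, 95.3 and 105 CPM against 72.3, 69.7 and 68.3 CPM, and the high-fat-diet libraries were nearly equal (log2 -0.64 ± 0.10 SE, edgeR adjusted p = 0.00109). The other 6 of the 10 largest falls had log2 fold changes of -0.73 to -0.67. They were chr5:140345676-140348024, chr5:45907018-45908498, chr19:54280658-54281801, chr6:139848930-139851071, chr17:85142404-85144444 and chr17:14301608-14305318. The first 5 of these were short, 1144 to 2349 bp, and lost their call without chow replicate 1 or chow replicate 3. Each of them except chr5:45907018-45908498 also lost it without high-fat-diet replicate 3, chr6:139848930-139851071 without high-fat-diet replicate 2, and chr19:54280658-54281801 without chow replicate 2 or high-fat-diet replicate 1 (highest edgeR adjusted p = 0.243). At chr17:14301608-14305318 leaving out chow replicate 3 alone ended the call (edgeR adjusted p = 0.0639).

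**Figure D2:**
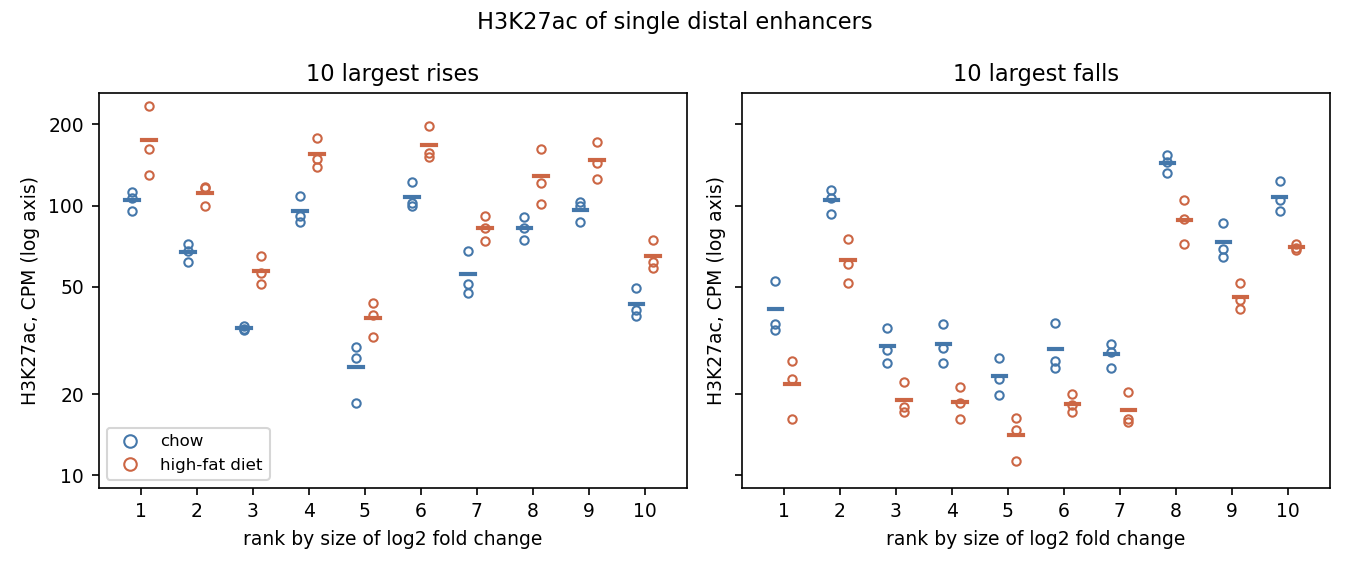
H3K27ac in CPM (log axis) in each of the 3 chow and 3 high-fat-diet libraries for the 10 largest rises (left) and falls (right), ranked by size of the log2 fold change. Circles are libraries and bars their means. No circle of one diet overlaps the other within a region, which the choice of these regions required, and high-fat-diet replicate 1 was the highest of its diet at 8 of the 10 rises.

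Few single H3K4me1 rows passed the test at the enhancers, but their fold changes lay mostly above 0. Of the 3397 paired rows, 40 rose and 11 fell on the high-fat diet (edgeR, adjusted p under 0.05 over all 16834 H3K4me1 rows). These 51 rows belonged to 51 enhancers (1.49%), against a background of 1.56% of all rows, of which 0.683% were higher and 0.879% lower. The share of calls was near the background, and 40 of the 51 were higher. The median log2 fold change of the paired rows was 0.086, with 71.3% above 0, against 0.0074 and 51.7% over all rows. All high-fat-diet libraries lay above all chow libraries at 16.8% of the paired rows, and below them at 4.97%. Over all rows the diets were separate at 22.0%, of which 11.0% were higher and 11.0% lower. H3K4me1 rows under other H3K27ac regions had a median of -0.0066, rows at H3K4me3 peaks without H3K27ac -0.115, and rows without either 0.028. Since library totals scale all rows together, these medians are relative to one another. The H3K4me1 union also takes in peaks of either diet, 15355 called on chow and 8616 on the high-fat diet. The part of this choice of rows in the medians was not tested. Among the enhancers, the median H3K4me1 log2 fold change was 0.118 in those up to 2500 bp and 0.035 in those over 7500 bp. It was 0.124 in the 857 with the lowest chow H3K27ac per kb and 0.045 in the 857 with the highest. Length and level were not fitted together.

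The upward shift was seen in 2 of the 3 high-fat-diet libraries. The median H3K4me1 level of the paired rows was 12.9, 12.9 and 13.4 CPM per kb in the chow libraries and 13.0, 14.7 and 13.9 on the high-fat diet. High-fat-diet replicate 1 lay inside the chow range, and replicates 2 and 3 above it. The share of in-row H3K4me1 counts under distal enhancers was 20.4%, 20.5% and 21.0% on chow and 20.4%, 22.6% and 21.6% on the high-fat diet. The means were 20.6% ± 0.323 and 21.6% ± 1.09 (SD, n = 3), and the groups overlapped (two-sided exact permutation p = 0.3). The median log2 fold change stayed above 0 in each fit without 1 library, from 0.037 without high-fat-diet replicate 2 to 0.121 without replicate 1. Calls ranged much further. Dropping high-fat-diet replicate 1 gave 412 higher and 43 lower rows, dropping replicate 2 gave 9 and 6, and dropping replicate 3 gave 46 and 16. Dropping chow replicate 1, 2 or 3 left 2 and 3, 4 and 2, or 8 and 4.

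**Figure D3:**
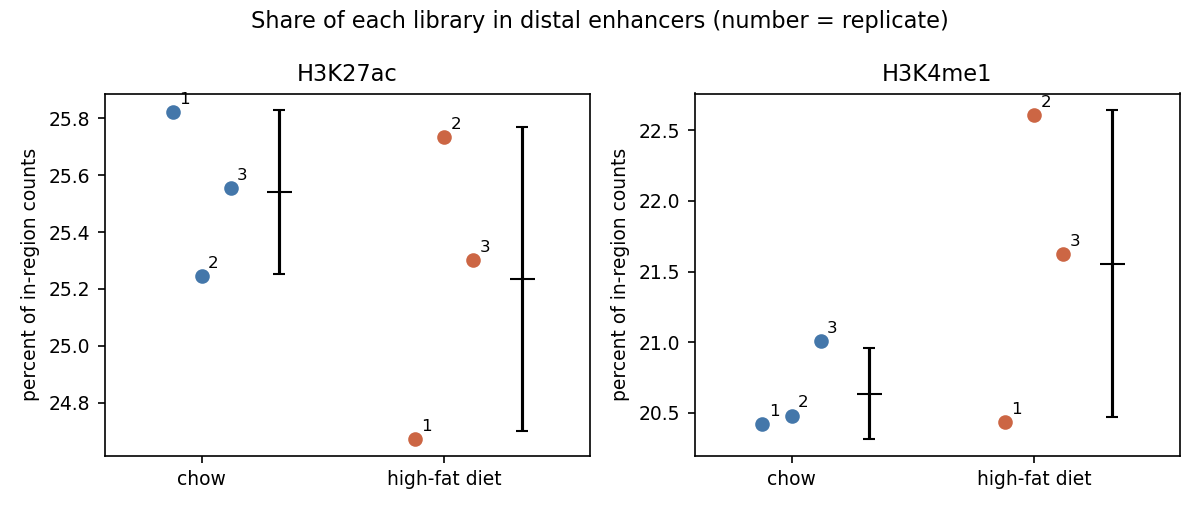
Percent of each library's in-region counts that fell in distal enhancers, for H3K27ac (left) and in the H3K4me1 rows under them (right). Points are libraries with their replicate number, and the bar beside them is the mean ± SD of the 3. The axes do not start at 0. For H3K4me1, high-fat-diet replicate 1 (20.4%) sat with the chow libraries while replicates 2 and 3 reached 22.6% and 21.6%.

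**Figure D4:**
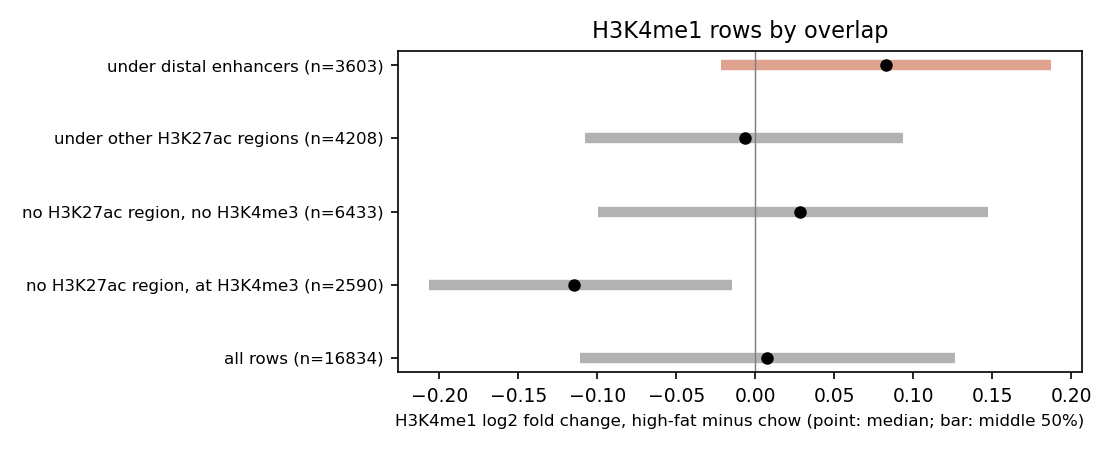
H3K4me1 log2 fold change between diets for H3K4me1 rows grouped by what they overlap. Points are medians over rows and bars span the middle 50%. Rows under distal enhancers had a median of 0.083 and rows at H3K4me3 peaks without an H3K27ac region -0.115.

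The largest H3K4me1 rise belonged to the row under chr19:12535859-12538676. It measured 13.0, 17.9 and 16.7 CPM on chow and 31.8, 46.8 and 25.0 CPM on the high-fat diet. The groups did not overlap, the fold change was 2.18 (log2 1.13 ± 0.17 SE, edgeR adjusted p = 0.000726), and it passed without any single library. H3K27ac there was 27.9, 28.6 and 18.2 CPM against 47.2, 31.0 and 35.8 CPM, did not overlap either, and did not pass (log2 0.60 ± 0.17 SE, edgeR adjusted p = 0.0747). The rows under chr19:4544394-4547539 and chr12:71812793-71815956 followed, with H3K4me1 log2 fold changes of 0.73 ± 0.17 and 0.66 ± 0.15 (SE, edgeR adjusted p = 0.023 and 0.0164). The first lost its call without chow replicate 1 or 2 or high-fat-diet replicate 2 or 3, and the second without chow replicate 1 or 3 or high-fat-diet replicate 2. The largest H3K4me1 falls were at 2 of the acetylation falls already described. At chr4:144674917-144677609 the row measured 15.1, 17.1 and 15.4 CPM on chow and 9.83, 7.01 and 8.91 CPM on the high-fat diet (log2 -0.90 ± 0.17 SE, edgeR adjusted p = 0.00676). This low row lost its call without chow replicate 2 or high-fat-diet replicate 2 (highest edgeR adjusted p = 0.0653). At chr17:14305459-14314744 the row measured 78.4, 80.4 and 70.5 CPM against 49.9, 41.3 and 43.3 CPM, with no overlap, and passed without any single library (log2 -0.77 ± 0.10 SE, edgeR adjusted p = 0.000214).

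The fall at chr17:14305459-14314744 was part of a stretch in which 3 neighbouring enhancers were lower on the high-fat diet. The first of them by position, chr17:14299587-14301279, had the third largest fall in H3K4me1, with 22.4, 19.4 and 24.8 CPM against 14.6, 17.0 and 10.8 CPM (log2 -0.65 ± 0.16 SE, edgeR adjusted p = 0.0341). Its H3K27ac was 25.4, 28.6 and 28.4 CPM against 21.1, 20.2 and 14.6 CPM and did not pass (log2 -0.58 ± 0.16 SE, edgeR adjusted p = 0.0618). Next to it, chr17:14301608-14305318 had H3K27ac of 64.4, 69.3 and 86.2 CPM against 41.3, 44.7 and 51.7 CPM (log2 -0.67 ± 0.12 SE, edgeR adjusted p = 0.00419). Its H3K4me1 was 84.7, 85.7 and 88.0 CPM against 53.3, 71.2 and 68.4 CPM (log2 -0.42 ± 0.10 SE, edgeR adjusted p = 0.0336). Every chow library exceeded every high-fat-diet library in both marks at all 3 enhancers. The choice of named regions required this, except for H3K27ac at chr17:14299587-14301279 and H3K4me1 at chr17:14301608-14305318. The paired H3K4me1 row of chr17:14301608-14305318 also ran into chr17:14305459-14314744, so the 3 enhancers are not independent. The H3K4me1 calls at chr17:14299587-14301279 and chr17:14301608-14305318 each ended without any 1 of the chow libraries, and the former also without high-fat-diet replicate 3 and under DESeq2 (adjusted p = 0.0577).

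Both marks passed at 12 enhancers, of which 6 rose in both, 5 fell in both and 1 moved in opposite directions. In the pairs that rose together, the acetylation rises chr6:90719783-90722977, chr17:13855894-13861547, chr17:84477503-84486536 and chr6:125289935-125297677 had H3K4me1 log2 fold changes of 0.60, 0.59, 0.50 and 0.49. At chr6:83991611-83995545 the fold changes were 0.48 ± 0.11 for H3K27ac and 0.47 ± 0.12 for H3K4me1 (log2, SE). In the pairs that fell together, chr5:140345676-140348024 stood at -0.73 and -0.50 and chr5:114998166-115005196 at -0.38 and -0.36 (log2, H3K27ac then H3K4me1). The joint calls rested on single libraries except at chr17:14305459-14314744, the only one of these 10 that passed in both marks without any single library. DESeq2's test also ended the joint call at chr17:84477503-84486536 through H3K27ac, at chr5:114998166-115005196 through H3K27ac (adjusted p = 0.0787), and through H3K4me1 at chr5:140345676-140348024 (adjusted p = 0.0669) and chr6:83991611-83995545 (adjusted p = 0.0783). DESeq2 gave no adjusted p for H3K27ac at chr6:90719783-90722977, chr4:144674917-144677609 and chr5:140345676-140348024, so it made no joint call there. Acetylation alone passed at 62 rises and 48 falls, and H3K4me1 alone at 33 rises and 6 falls, while 3266 enhancers passed in neither.

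Across all 3427 enhancers the log2 fold changes of the marks correlated weakly (r = 0.22, Spearman's rho = 0.16), a description over regions that share libraries and, in part, DNA. Both fold changes were positive at 1224 enhancers and both negative at 637. H3K27ac was negative and H3K4me1 positive at 1220, and the reverse held at 346. Among the 68 enhancers whose acetylation rose, the H3K4me1 fold change was above 0 in 62, with a median of 0.16. Among the 54 whose acetylation fell, it was below 0 in 35, with a median of -0.10. These were the calls of 1 mark and the values of the other, to be read against the 71.3% of enhancers with H3K4me1 above 0. The same livers may have served for both marks, so the marks are not known to be independent.

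**Figure D5:**
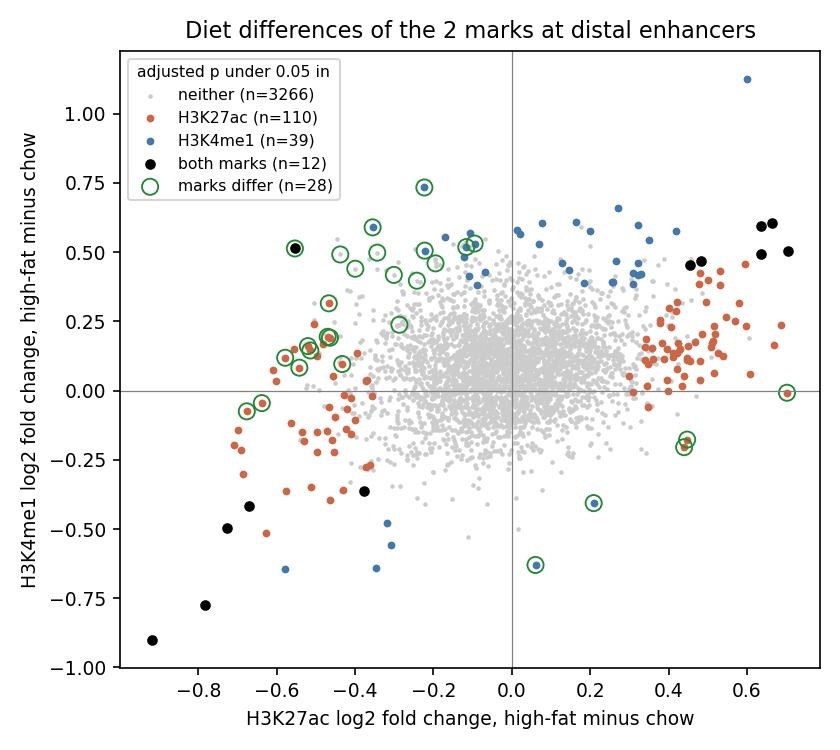
H3K4me1 against H3K27ac log2 fold change between diets at the 3427 distal enhancers. Colours give the mark or marks with an edgeR adjusted p under 0.05, and rings the 28 enhancers called for a difference between their marks. Most points lie above the horizontal line at 0 (71.3%), and enhancers called in both marks lie along the rising diagonal except 1 at the upper left.

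The marks were called different in their response to diet at 28 enhancers, by the mark-by-diet term of an edgeR fit over all 12 libraries. The acetylation response exceeded that of H3K4me1 at 5 and was below it at 23. These 28 calls were 0.817% of the enhancers, near the background of 0.735% of 7208 region and row pairs. Higher and lower calls were 0.146% and 0.671% of the enhancers, against 0.264% and 0.472% of all pairs. The fit took the libraries as independent, although the same livers may have served for both marks. The median difference between the marks was -0.092 on the log2 scale at the enhancers and -0.022 over all pairs. In 21 of the 23, H3K27ac was below 0 and H3K4me1 above 0. Choosing by a negative difference favours these signs, which also held at 1220 of all 3427 enhancers. The largest difference was at chr10:84271452-84274690, where the marks passed in opposite directions. Its H3K27ac was 56.8, 46.2 and 49.2 CPM on chow and 28.0, 31.7 and 42.5 CPM on the high-fat diet, while its H3K4me1 was 22.7, 21.3 and 25.4 CPM against 31.8, 36.5 and 30.4 CPM. Neither mark's groups overlapped, and the difference between the marks was -1.07 ± 0.19 (log2, SE, edgeR adjusted p = 0.00743). The call of each mark ended without high-fat-diet replicate 2 or any 1 of the chow libraries (highest edgeR adjusted p = 0.227 for H3K27ac and 0.246 for H3K4me1). DESeq2 called neither mark there (adjusted p = 0.0504 and 0.0554). In the other direction, chr15:78755237-78759624, described above, had a difference of 0.71 ± 0.12 (log2, SE, edgeR adjusted p = 0.00743). At chr17:71548733-71553411, 343 bp from an H3K4me3 peak, H3K4me1 was 38.3, 40.0 and 33.1 CPM on chow and 24.9, 25.0 and 22.3 CPM on the high-fat diet. Its H3K27ac was 75.4, 88.4 and 73.1 CPM against 80.2, 84.7 and 78.6 CPM and overlapped (difference 0.69 ± 0.15, log2, SE, edgeR adjusted p = 0.0245). At chr6:116883079-116887212, H3K4me1 was 15.7, 14.6 and 19.9 CPM against 25.1, 24.9 and 25.2 CPM, and H3K27ac was 63.7, 72.6 and 67.3 CPM against 39.3, 58.3 and 55.5 CPM. The marks diverged there by -0.95 ± 0.19 (log2, SE, edgeR adjusted p = 0.0134), although acetylation alone did not pass. H3K27ac was counted over the whole enhancer and H3K4me1 over its paired row, so the DNA compared could be only partly the same. H3K4me1 covered 45.9% of this enhancer and 65.2% of chr10:84271452-84274690. At chr17:71548733-71553411 the paired row measured 1885 of 4679 bp, and a further overlapping row was not used. The number of called mark differences moved with single libraries. Dropping chow replicate 1, 2 or 3 left 0, 0 or 4 of them. Dropping high-fat-diet replicate 1, 2 or 3 gave 230, 10 or 5.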

How the data were processed

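Per the submitters' processing notes, the tools used on ChIP reads included Bowtie 0.12.7, MACS 1.4.0rc2, DESeq2 and bedtools, on mm9; which of them made the region counts is not given in the sources used here. The deposited tables hold raw counts per union region. Per the file headers, the authors ran MACS on the pooled libraries of a diet with that diet's IgG pool as control, at a p-value cutoff of 1e-06, and filtered the peaks at 10 percent false discovery. The deposited lists also give a score (from the logarithm of p), a fold enrichment ratio and tag counts per peak. Pooled H3K27ac tags numbered 74816761 on chow and 63639233 on the high-fat diet.

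Enhancers, comparisons and lists were chosen with earlier results of these data known. Both marks were fitted separately over all regions with edgeR 4.0.16 in R 4.3.3 (TMM, filterByExpr by diet, quasi-likelihood F test, Benjamini-Hochberg adjustment), and the script was tested on simulated data. All regions passed the filter. The mark-by-diet term came from 1 edgeR fit of each H3K27ac region with its paired row. Lengths count both end bases. Libraries were not paired by their replicate number. Named regions were the 10 largest called rises and falls of H3K27ac without overlap between diets, 3 each for H3K4me1, the 5 highest chow levels per kb, up to 5 called in both marks per direction or in opposite directions, the 3 largest called differences between marks per direction, and 3 regions on each side of the length limit. The 109 enhancers of chromosome 18, with 2 calls, were counted but not named.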

Additional observations from a re-analysis of the deposited data

Results flagged for a closer look

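The enhancers below, 6 in number, are listed because the test called a difference between their marks' responses to diet. It was edgeR's mark-by-diet term, the log2 H3K27ac response minus the log2 H3K4me1 response. The share of such calls at enhancers, 0.817%, was near the 0.735% over all pairs. The difference was 0.71 at chr15:78755237-78759624, 0.69 at chr17:71548733-71553411 and 0.64 at chr2:30037928-30045087. It was -1.07 at chr10:84271452-84274690, -0.96 at chr19:4544394-4547539 and -0.95 at chr6:116883079-116887212. Each call ended without chow replicate 1 and without chow replicate 2, with edgeR adjusted p reaching 0.112 at chr15:78755237-78759624 and 0.328 at chr2:30037928-30045087, and the direction held in every fit. H3K4me1 rows covered 98.7%, 71.6% and 95.1% of the first 3 enhancers and 65.2%, 53.1% and 45.9% of the last 3, in the order given. Same-numbered libraries of the marks are not stated to come from 1 animal.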

How the results depend on the processing

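For H3K27ac, 122 calls became 120 with DESeq2 size factors, 113 with total counts, 83 with DESeq2's test (which gave 430 enhancers, 8 of the 122 among them, no adjusted p) and 54 (25 higher, 29 lower) among the 2114 enhancers under 5000 bp. Those 8 included the rise chr6:90719783-90722977 and the falls chr4:144674917-144677609, chr5:140345676-140348024, chr5:45907018-45908498, chr19:54280658-54281801, chr6:139848930-139851071 and chr17:85142404-85144444. Leaving out 1 library gave 27 to 221 calls, 11 to 114 higher and 16 to 107 lower. The median of -0.018 ranged from -0.042 to 0.0036 without 1 library, and was above 0 only without high-fat-diet replicate 1. For H3K4me1, 51 calls became 32 with DESeq2 (25 higher, 7 lower), 33 among enhancers under 5000 bp (26 and 7), and 5 to 455 without 1 library (2 to 412 higher, 2 to 43 lower). The 28 mark differences became 31 with total counts and 0 to 230 without 1 library (0 to 29 higher, 0 to 201 lower). Requiring 50 percent H3K4me1 overlap or no H3K4me3 within 2000 bp left counts within 1.5 times.

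Of the 4 shares and ratios, the ratio to promoter regions changed sign once, from -0.020 to 0.011. It ranged from -0.046 to 0.011 over the fits without 1 library. None could pass with 3 libraries a diet. The cause of the changes without single libraries was not tested.

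Within each mark, same-numbered chow and high-fat-diet libraries did not deviate together. Their r ran from -0.13 to 0.091 for H3K27ac and from -0.14 to 0.057 for H3K4me1. Replicate numbers were therefore not taken as pairing between diets. Whether same-numbered libraries of both marks deviated together was not tested. A replicate block gave 109 H3K27ac calls (63 higher, 46 lower), 78 H3K4me1 calls (62 and 16) and 63 mark differences (9 and 54). The block ended the edgeR call of H3K27ac at chr19:54280658-54281801 (adjusted p = 0.0825) and chr6:139848930-139851071 (0.0587).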

Other observations

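Neighbouring enhancers formed groups. With gaps of up to 10000 bp bridged, a distance chosen after seeing the data, 1157 enhancers fell into 491 groups of at least 2 and 2270 stood alone, and the largest groups held 6. At least 2 enhancers rose in 2 of these groups and at least 2 fell in 5, while no group held both a rise and a fall. Only 35 called enhancers lay in the 491 groups, so few groups could hold 2 calls of any kind. These counts were not set against those of all H3K27ac regions. The groups with falls spanned chr10:59238593-59250532, chr12:21137940-21156344, chr17:14299587-14314744, chr19:4017613-4035433 and chr5:114998166-115009909. The groups with rises spanned chr12:25914904-25956842, where all 4 enhancers had log2 fold changes above 0 (0.05 to 0.48), and chr7:91262237-91269970, with 0.41 and 0.52.

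The X chromosome held 7 distal enhancers (0.204%), 2 regions with neither H3K4 mark (0.214%), 0 of 10000 bp or more and 90 promoter regions (1.47%). Over all H3K27ac regions it held 99 (0.881%). Peaks of the chow list alone overlapped 1625 enhancers, of the high-fat-diet list alone 483, and of both 1319, from 74816761 and 63639233 pooled tags.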
